A study of Homo sapiens with 8 samples.

Results

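The genes described here are 46 genes of the G2 phase and of mitosis: the cyclin-CDK1 engine, the mitotic kinases, the spindle checkpoint and anaphase machinery, and the proteins of the kinetochore, spindle, midzone and condensing chromosome. They were chosen by name, with earlier results of these data known, and all 46 of 46 were found among the 23621 gene rows of the deposited tables. All 46 reached the minimum of a mean of 1 FPKM over the 8 libraries that left 11042 genes for testing, and none was listed at 0 in any library. FPKM divides a gene's fragments by its length and by the size of the library, so levels of different genes can be set side by side.

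RNA was sequenced from NALM6, an established human B-cell acute lymphoblastic leukemia line, in 8 libraries of poly(A) RNA. Every library comes from cells with a doxycycline-inducible HMGN1 construct, coding for the wild-type protein (WT) or for a mutant that does not bind nucleosomes (S20,24E, called SE here). HMGN1 is a chromatin protein that binds nucleosomes. For 6 hours the cells received vehicle or doxycycline (DOX, 100 ng/ml), which gives 4 groups of 2 libraries: WT with vehicle, WT with DOX, SE with vehicle and SE with DOX. Each group has a biological replicate A and a replicate B per the labels. Whether 1 letter marks 1 culture split between vehicle and DOX, and how many clones stand behind each construct, was not given in the sources used here. Cells without a construct were not analysed here. The HMGN1 row itself lay between 793 and 809 FPKM in the WT libraries. In SE it stood apart by letter, at 1427 and 1421 in A and at 1066 and 1061 in B, vehicle first, and under each letter of both constructs it was no higher with DOX than with vehicle. How a transcript of the construct would be counted in that row was not given there either.

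As a cell leaves G2, cyclin B with CDK1 drives entry into mitosis, helped by CDC25 phosphatases and by Polo-like and Aurora kinases. The checkpoint proteins of the BUB and TTK family hold back the anaphase-promoting complex until every kinetochore is attached, after which CDC20 and UBE2C help it mark securin and the cyclins for destruction. Transcripts of these genes are low in G1 and are switched on late in the cycle by MYBL2, the MuvB core and FOXM1, and cell populations that divide more quickly or hold more cells in G2 and M have more of them. In RNA from a whole culture, fewer cells in G2 and M and less RNA per such cell cannot be told apart.

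The libraries differed in ways that bear on these genes. Unnormalized FPKM summed to between 940127 and 1193810 per library, and the median of the genes tested was nearly the same in all 8, between 3.93 and 3.94 on the log2 scale. Relative depth, read from what 1 read is worth in rows of low value and set to 1 for WT vehicle A, was 1 and 1.05 in the WT A libraries and 0.758 and 0.812 in the WT B libraries, vehicle first. In the SE libraries it was 0.92 and 1.14 for A and 0.933 and 0.859 for B. Spike-in RNA, a synthetic mix added in a fixed volume to RNA from an equal number of cells, took 0.531% and 0.538% of FPKM in WT A against 0.558% and 0.569% in WT B, and 0.826% and 1.06% in SE A against 0.719% and 0.763% in SE B. The second deposited table, scaled by the authors so that the spike-in sums are nearly equal, sets WT A above WT B and SE A below SE B across most genes. All comparisons are given on the unnormalized table first, where levels are relative to the rest of the library, and then on the normalized one.

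The mitotic genes were well expressed. Their mean levels over the 8 libraries ran from 4.005 FPKM for CDC25C, a phosphatase that activates CDK1, to 234 for PTTG1, which codes for securin. The median of the 46 means was 54.0 FPKM against 15.2 over all genes tested, and 45 of 46 lay above that value. There were 10 members at 100 FPKM or more, 34 between 20 and 100, and 2 below 20, which were CDC25B and CDC25C. Levels were also steady on the unnormalized table: the highest library was within 1.5-fold of the lowest for 45 of 46, from 1.07-fold for KIF4A upward, and CDC25C alone ranged further, by 1.72-fold. With the normalized values 3 of 46 stayed within 1.5-fold, and ranges ran from 1.37-fold for KIF14 to 2.04-fold for BUB1. Reads of PTTG1 and KIF4A could be divided with near-identical copies, but PTTG2 had a mean of 0.65 FPKM and KIF4B of 2.20, against 234 and 28.8 for the copies described here.

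**Figure D1:**
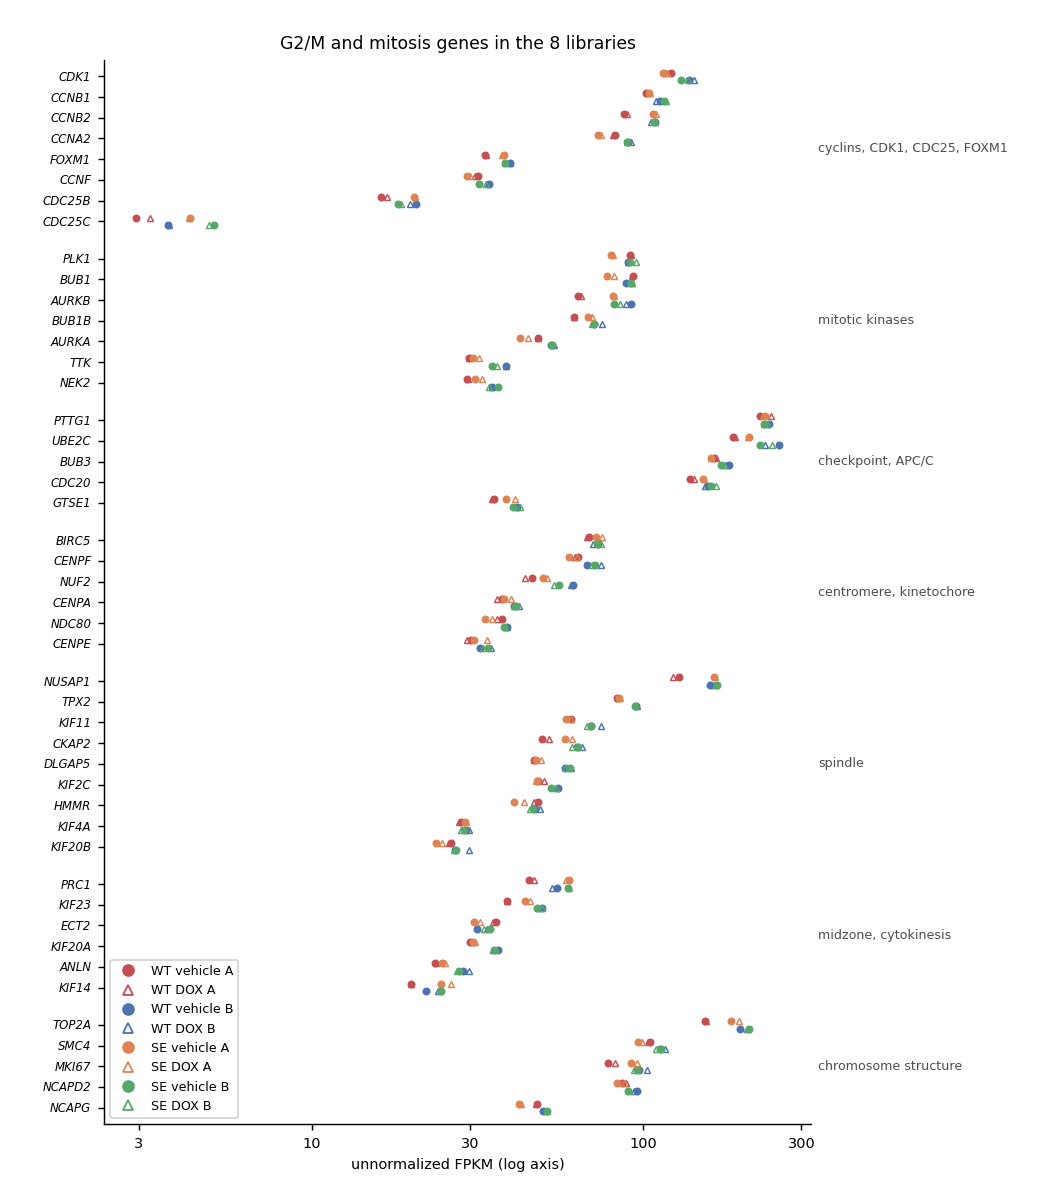
Unnormalized FPKM (horizontal log axis) of the 46 genes in each of the 8 libraries, grouped by role and ordered within a role by mean level. Colours mark construct and letter, filled circles vehicle and open triangles DOX; the WT A symbols (red) lie to the left of the WT B symbols (blue) for 41 of 46 genes in both treatments, while circle and triangle of 1 colour nearly coincide.

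Replicates A and B of the WT construct differed in these genes. On the unnormalized table, 36 of 46 were lower in WT A than in WT B and 1, ECT2, was higher, at an adjusted p under 0.05 in limma. This is set against a background of 45.9% of all genes tested that passed in either direction, 22.4% lower and 23.4% higher. The median difference of the 46 was -0.20 on the log2 scale, while that of all genes tested was -0.01. In both treatments 41 of 46 were lower in A, against 41.7% of all genes tested, and the 5 that were not were PLK1, BUB1, PTTG1, HMMR and ECT2. The medians were alike in the 2 pairs, -0.19 between the vehicle libraries and -0.22 between the DOX libraries. A letter stands for 1 vehicle and 1 DOX library, so the test compares these libraries and its spread may be technical. The 46 were chosen with earlier results of these data known, so the counts describe them and are not an independent test.

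On the authors' normalized table the same contrast looked different. There 0 of 46 were lower in WT A and 1, again ECT2, was higher, with 44.3% of all genes tested past the threshold, 41.9% higher and 2.35% lower. The median of the 46 was 0.03 and that of all genes tested 0.22. Relative to all genes, the 46 therefore stood lower in WT A by nearly the same amount on both tables, with a distance of -0.20 on the unnormalized and -0.19 on the normalized one. The normalized values are close to a rescaling of each library, which moves the members and all genes alike. Both distances therefore come from the same values and are not independent results. A statement that the mitotic transcripts were lower in WT A holds for unnormalized FPKM and not for the spike-in scale. The 46 summed to 3108 and 3130 FPKM in WT A and to 3579 and 3591 in WT B, vehicle first. The whole libraries also summed to less in WT A, at 1068410 and 1065350 FPKM against 1193810 and 1186000 in WT B. The share of the 46 in those sums was therefore closer between the letters than their FPKM. The part of the FPKM sums, of relative depth and of spike-in share in the difference was not tested.

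The SE replicates were compared in the same model. In SE A, 28 of 46 were lower than in SE B and 1, CDC25B, was higher, against a background of 40.3% of all genes tested, 25% lower and 15.3% higher. The median of the 46 was -0.13 and that of all genes -0.02. Lower in A under both treatments were 36 of 46, against 44.9% of all genes tested. Without the SE vehicle A library, or without SE vehicle B, 16 of 46 passed. With the normalized values 38 were lower, with a median of -0.38 against -0.27 over all genes, of which 61.2% passed and 59% were lower. Replicate letters are given within a construct and no label ties A of one construct to A of the other. Over both constructs, 32 of 46 were lower in A in all 4 pairs of libraries, against 18.5% of all genes tested.

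**Figure D2:**
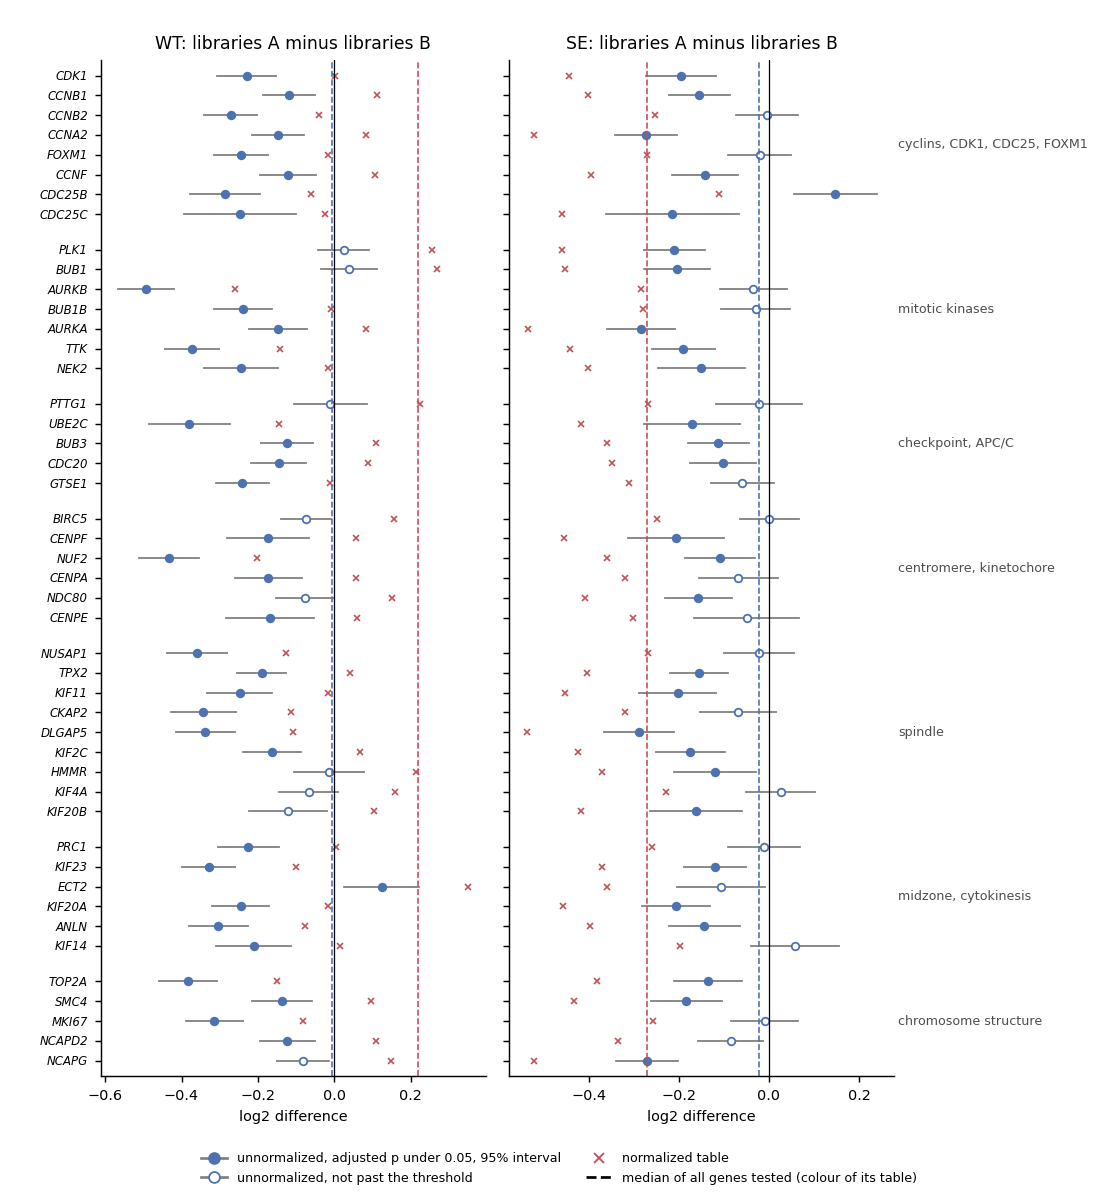
Log2 difference A minus B (horizontal axis) of each of the 46 genes in WT (left) and SE (right); filled points passed an adjusted p under 0.05 on the unnormalized table, open ones did not, bars are 95% intervals, crosses give the normalized table and dashed lines the median of all genes tested in the table of the same colour. In WT the points centre on -0.20 and the crosses on 0.03, both to the left of their dashed lines.

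**Figure D3:**
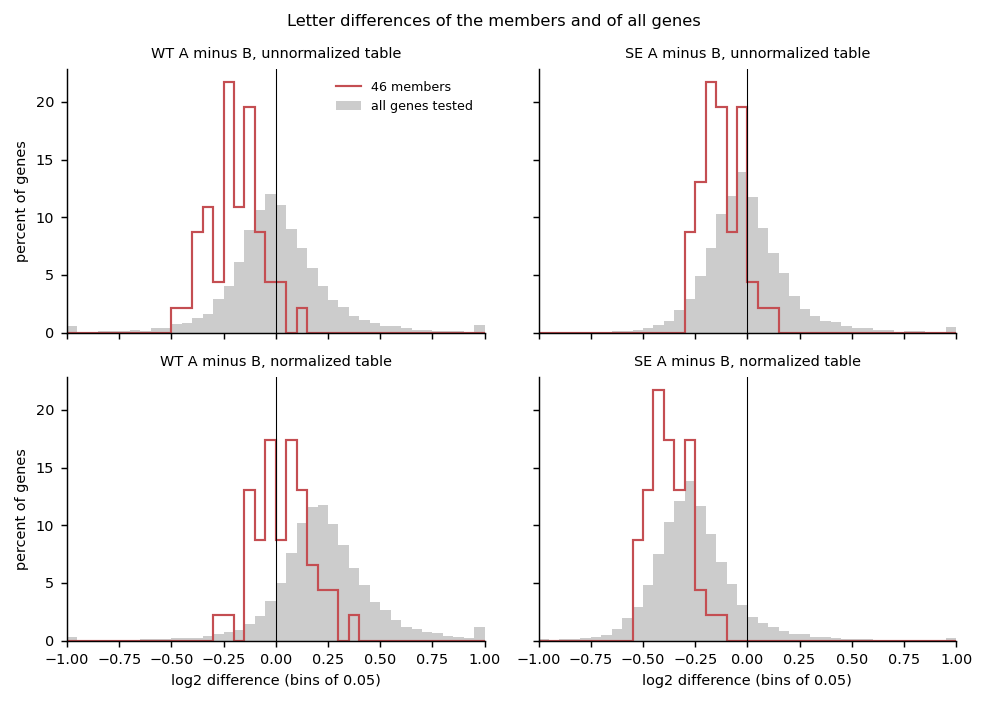
Percent of genes (vertical axis) in bins of 0.05 of the log2 difference A minus B (horizontal axis), for the 46 genes (red outline) and all 11042 genes tested (grey), in WT and SE on both tables. The red outline lies left of the grey distribution in all 4 panels, and the grey distribution itself moves from about 0 to 0.22 in WT when the normalized table is used.

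Many of these genes share short promoter sequences that the choice by name did not use. RefSeq promoters, 250 bases before to 50 bases after a gene's start in GRCh38.p14, were found for 39 of the 46; BIRC5, TTK, UBE2C, BUB3, AURKA, FOXM1 and TPX2 were not matched. They were searched on both strands for TTTGAA, a form of the cell cycle genes homology region, the element read by the MuvB complexes, and for CCAAT, the box read by NF-Y; hits of the searched strings can overlap by at most 2 bases, where CCAAT meets its own reverse complement. TTTGAA was in 28 of 39 genes, or 71.8%, where a gene counts if any of its promoters holds the string. The share was 13.5% of the genes tested with a promoter and 18.2% of all genes with one. Counted singly, 15.2% of all 35116 promoters of that length held it. CCAAT was in 30 of 39, or 76.9%, against 44.4% of the genes tested and 39.7% of all genes with a promoter. Of promoters counted singly, 34.6% held it. Both were in 22 of 39, or 56.4%, against 7.49% of the genes tested. The 160 bases before the start are shown for 6 genes, with each match on either strand in capitals: CCNB2, KIF23 and PRC1, with both strings and a fall in WT A; BUB1B, with TTTGAA and no CCAAT; AURKB, with the greatest fall and no TTTGAA in either of its 2 windows; and PLK1, with both strings and no difference that passed in WT.
CCNB2, chr15:59104986-59105145, plus strand: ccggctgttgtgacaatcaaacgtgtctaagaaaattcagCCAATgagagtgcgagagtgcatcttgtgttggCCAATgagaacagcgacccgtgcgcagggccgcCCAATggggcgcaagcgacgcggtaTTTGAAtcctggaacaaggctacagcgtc
KIF23, chr15:69414189-69414348, plus strand: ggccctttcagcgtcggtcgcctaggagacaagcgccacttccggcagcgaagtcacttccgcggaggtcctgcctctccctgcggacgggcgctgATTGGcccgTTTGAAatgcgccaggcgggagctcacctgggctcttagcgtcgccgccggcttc
PRC1, chr15:90994536-90994695, minus strand: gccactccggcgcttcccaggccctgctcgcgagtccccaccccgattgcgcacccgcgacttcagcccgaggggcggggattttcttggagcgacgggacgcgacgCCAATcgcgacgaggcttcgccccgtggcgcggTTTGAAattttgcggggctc
BUB1B, chr15:40160909-40161068, plus strand: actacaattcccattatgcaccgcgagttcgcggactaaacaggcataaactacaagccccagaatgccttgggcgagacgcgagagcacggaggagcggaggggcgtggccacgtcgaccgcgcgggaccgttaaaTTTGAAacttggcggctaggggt
AURKB, chr17:8210226-8210385, minus strand: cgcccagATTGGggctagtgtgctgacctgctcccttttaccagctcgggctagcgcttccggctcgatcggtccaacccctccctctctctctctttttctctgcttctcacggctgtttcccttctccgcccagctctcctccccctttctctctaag
PLK1, chr16:23678729-23678888, plus strand: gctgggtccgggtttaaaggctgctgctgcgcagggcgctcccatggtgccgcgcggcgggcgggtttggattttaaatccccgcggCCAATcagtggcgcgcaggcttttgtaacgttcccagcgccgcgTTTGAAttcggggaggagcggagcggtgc

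In these windows TTTGAA begins 20 bases before the start in PRC1, 23 in BUB1B, 29 in CCNB2 and in PLK1, and 55 in KIF23. In CCNB2 the 3 CCAAT boxes shown begin 120, 87 and 54 bases before the start. The median difference WT A minus B was -0.22 in the members with TTTGAA and -0.17 in those without, and over all genes tested with a promoter it was -0.02 and -0.01. In SE the order was the other way, with -0.12 in the members with TTTGAA and -0.15 in those without. A match describes these letters only, and its relation to the difference between replicates was not tested.

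Among the cyclins, CDK1 and its regulators, all 8 of 8 were lower in WT A than in WT B, against 22.4% of all genes tested. On the normalized table CDK1 (0.0029), CCNA2 (0.08), CCNB1 (0.11) and CCNF (0.11) were positive. There CCNB2, FOXM1, CDC25B and CDC25C were negative. The values that follow are of the unnormalized table unless the normalized one is named. CCNB2, the second B-type cyclin, stood at 87.6 FPKM with vehicle and 89.2 with DOX in WT A, and at 108 and 105 in WT B. Both A libraries were below both B libraries, a difference of -0.27 on the log2 scale (SE 0.03, adjusted p = 0.000203), or a ratio of 0.828. In SE the A libraries held 107 and 109 FPKM and the B libraries 108 and 109, with a difference of 0.00 (adjusted p = 0.911), so the CCNB2 promoter shown above belongs to a gene that differed between the WT replicates and not detectably between the SE ones. FOXM1, a transcription factor for late cell-cycle genes, had the same pattern: 33.2 and 33.6 FPKM in WT A, 39.5 and 39.7 in WT B, 37.9 and 37.4 in SE A, and 38.3 and 38.1 in SE B. The WT difference was -0.24 (SE 0.03, adjusted p = 0.00037) and the SE difference -0.02 (adjusted p = 0.629).

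CDC25B, which activates CDK1 at the onset of mitosis, moved in opposite directions on the unnormalized table. It was at 16.2 and 16.8 FPKM in WT A and at 20.6 and 19.7 in WT B, but at 20.3 and 20.5 in SE A and at 18.2 and 18.6 in SE B. Neither construct had overlap between its letters. The difference was -0.29 in WT (SE 0.04, adjusted p = 0.000693) and 0.15 in SE (SE 0.04, adjusted p = 0.0203). With the normalized values both differences were negative and neither passed in limma. They were -0.06 in WT (adjusted p = 0.633) and -0.11 in SE (adjusted p = 0.338). CDC25C, the lowest of the 46, was at 2.95 and 3.24 FPKM in WT A, 3.67 and 3.70 in WT B, 4.28 and 4.26 in SE A, and 5.06 and 4.88 in SE B. Here all 4 SE libraries were above all 4 WT libraries, and B was above A in each construct: A minus B was -0.25 in WT (adjusted p = 0.014) and -0.21 in SE (adjusted p = 0.0287).

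CDK1, the kinase at the centre of the group and its most abundant member, stood at 121 and 117 FPKM in WT A, 137 and 142 in WT B, 114 and 118 in SE A, and 129.7 and 137 in SE B. Every A library was below every B library, with differences of -0.23 in WT (SE 0.03, adjusted p = 0.000874) and -0.20 in SE (SE 0.03, adjusted p = 0.00263). CCNA2, the cyclin of S phase and early mitosis, had the smallest p of the 46 in SE: 73.2 and 74.6 FPKM in SE A, 89.3 and 89.4 in SE B. That is a difference of -0.27 (SE 0.03, adjusted p = 0.000339), against -0.15 in WT (82.3 and 81.3 in A, 89.7 and 91.7 in B, adjusted p = 0.0041). CCNB1 and CCNF showed smaller falls in A: -0.12 in WT for both (adjusted p = 0.012 and 0.0142), and -0.15 and -0.14 in SE. CCNF, the F-box cyclin, was at 31.7 and 31.1 FPKM in WT A, 34.3 and 34.0 in WT B, 29.4 and 29.97 in SE A, and 32.0 and 33.5 in SE B.

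Of the 7 mitotic kinases and BUB proteins with a kinase fold, 5 were lower in WT A and none was higher. The shares over all genes tested were 22.4% lower and 23.4% higher. AURKB, the kinase of the chromosomal passenger complex, had the greatest difference of all 46. It was at 63.4 and 64.9 FPKM in WT A and at 91.7 and 88.9 in WT B, or -0.49 on the log2 scale (SE 0.03, adjusted p = 1.43e-05) and a ratio of 0.711. In SE it was at 80.8 and 81.6 in A and at 81.5 and 84.9 in B, values that overlap, with a difference of -0.03 (adjusted p = 0.43). The WT A libraries were thus the low ones on the unnormalized table, and both WT B libraries were above all SE libraries. With the normalized values the WT difference of AURKB was -0.26 and did not pass in limma (adjusted p = 0.0735).

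TTK, the checkpoint kinase MPS1, stood at 29.8 and 29.7 FPKM in WT A, 38.6 and 38.4 in WT B, 30.6 and 31.8 in SE A, and 35.0 and 36.2 in SE B. A was below B in both constructs, with -0.37 in WT (SE 0.03, adjusted p = 4.56e-05) and -0.19 in SE (adjusted p = 0.00197). BUB1B, the checkpoint protein BUBR1, was at 61.8 and 61.7 FPKM in WT A, 71.02 and 74.8 in WT B, 68.2 and 69.9 in SE A, and 71.2 and 69.9 in SE B. Its WT difference of -0.24 (adjusted p = 0.000636) had a counterpart of -0.03 in SE, which did not pass (adjusted p = 0.51). NEK2, a centrosomal kinase, had differences of -0.24 in WT and -0.15 in SE (adjusted p = 0.00204 and 0.0229).

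PLK1, BUB1 and AURKA behaved otherwise. PLK1, the Polo-like kinase, had 91.3 and 91.9 FPKM in WT A and 90.0 and 90.2 in WT B, a difference of 0.02 (95% interval -0.04 to 0.09, adjusted p = 0.525). In SE it had 80.2 and 81.2 in A and 91.3 and 95.3 in B, a difference of -0.21 (SE 0.03, adjusted p = 0.000965). The low libraries for PLK1 were therefore the SE A pair. BUB1, a kinetochore kinase, was also lowest in SE A, with 93.3 and 92.2 FPKM in WT A, 88.7 and 91.9 in WT B, 77.8 and 81.7 in SE A, and 91.5 and 92.4 in SE B. Its differences were 0.04 in WT (adjusted p = 0.352) and -0.20 in SE (adjusted p = 0.00164). AURKA, the spindle pole Aurora kinase, was lower in A in both constructs, at 47.9 and 48.1 FPKM in WT A, 52.6 and 53.8 in WT B, 42.3 and 44.8 in SE A, and 53.1 and 53.0 in SE B. The difference was -0.15 in WT (adjusted p = 0.00704) and -0.28 in SE (adjusted p = 0.00045).

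The checkpoint and anaphase genes were the most abundant group, with PTTG1, UBE2C, BUB3 and CDC20 all above 100 FPKM. UBE2C, the ubiquitin-conjugating enzyme of the anaphase-promoting complex, was at 186 and 189 FPKM in WT A and at 257 and 232 in WT B. Its difference of -0.38 (SE 0.05, adjusted p = 0.000327) was accompanied by -0.17 in SE (209 and 207 in A, 225 and 244 in B, adjusted p = 0.0192), with no overlap in either construct. CDC20, which activates the complex, was at 138 and 142 FPKM in WT A, 157 and 153 in WT B, 151 and 152 in SE A, and 160.4 and 165 in SE B. It differed by -0.15 in WT (adjusted p = 0.00616) and -0.10 in SE (adjusted p = 0.0323).

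PTTG1, the securin that the complex destroys, did not follow its activators. It had 225 and 243 FPKM in WT A, 240.0 and 231 in WT B, 233 and 230.4 in SE A, and 232 and 238 in SE B. The letters overlapped in both constructs, and the differences of -0.01 in WT and -0.02 in SE did not pass (adjusted p = 0.859 and 0.701). GTSE1, a microtubule-bound protein of G2 and mitosis, was at 35.5 and 34.9 FPKM in WT A, 41.5 and 41.7 in WT B, 38.6 and 41.0 in SE A, and 40.5 and 42.4 in SE B. It fell in WT A (-0.24, adjusted p = 0.000417), and its SE difference of -0.06 did not pass (adjusted p = 0.156). BUB3, a WD-repeat checkpoint protein, differed by -0.12 in WT and -0.11 in SE (adjusted p = 0.0101 and 0.0184).

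At the centromere and kinetochore, 4 of 6 were lower in WT A, against 22.4% of all genes tested. NUF2, a subunit of the NDC80 complex that grips microtubules, stood at 46.03 and 44.1 FPKM in WT A, 61.2 and 60.5 in WT B, 49.9 and 51.3 in SE A, and 55.6 and 53.6 in SE B. This gave -0.43 in WT (SE 0.03, adjusted p = 3.5e-05), second to AURKB among the 46, and -0.11 in SE (adjusted p = 0.0332). NDC80, its partner in the same complex, did not show such a gap, with 37.4 and 36.1 FPKM in WT A and 38.8 and 38.8 in WT B. The difference was -0.08 (adjusted p = 0.0823), and in SE, where A held 33.4 and 35.0 and B 37.9 and 38.3, it was -0.16 (adjusted p = 0.00622). For NUF2 the difference between the constructs passed (-0.32, adjusted p = 0.00104), and for NDC80 it did not (0.08, adjusted p = 0.196).

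CENPA, the histone H3 variant of centromeres, was at 37.5 and 36.1 FPKM in WT A, 40.8 and 42.2 in WT B, 38.1 and 40.0 in SE A, and 41.2 and 40.6 in SE B. CENPF, a large kinetochore protein, was at 63.7 and 62.0 in WT A, 67.4 and 74.6 in WT B, 59.5 and 63.2 in SE A, and 71.4 and 70.2 in SE B. Both were lower in WT A, at -0.17 each (adjusted p = 0.00677 and 0.0159), and CENPF also in SE A, at -0.21 (adjusted p = 0.00909). CENPE, a kinetochore motor, differed by -0.17 in WT (adjusted p = 0.0254) and by -0.05 in SE, which did not pass (adjusted p = 0.469). BIRC5, the survivin of the passenger complex, was at 68.5 and 67.4 FPKM in WT A, 72.8 and 70.4 in WT B, 72.2 and 74.8 in SE A, and 72.5 and 74.4 in SE B. It stayed within 1.11-fold over the 8 libraries on the unnormalized table and passed in neither construct (-0.07 in WT, adjusted p = 0.0636; 0.00 in SE, adjusted p = 0.98), while AURKB, the kinase of the same complex, had the greatest WT difference.

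Of the 9 spindle motors and microtubule-associated proteins, 6 were lower in WT A, against 22.4% of all genes tested. NUSAP1, a microtubule-bundling protein, had 128 and 123 FPKM in WT A and 158 and 163 in WT B, a difference of -0.36 (SE 0.03, adjusted p = 8.96e-05). In SE it had 163 and 164 in A and 167 and 165 in B, and the difference of -0.02 did not pass (adjusted p = 0.632). The WT A libraries were again the ones apart from the other 6. CKAP2, another spindle protein, was at 49.4 and 51.8 FPKM in WT A, 63.2 and 65.1 in WT B, 57.9 and 60.9 in SE A, and 63.6 and 61.0 in SE B, with -0.34 in WT (adjusted p = 0.000178) and -0.07 in SE (adjusted p = 0.17). DLGAP5, a spindle assembly factor, fell in A of both constructs, from 58.1 and 60.3 FPKM in WT B to 46.7 and 46.9 in WT A, and from 60.0 and 58.2 in SE B to 47.6 and 49.1 in SE A. Its differences were -0.34 in WT (adjusted p = 0.000122) and -0.29 in SE (adjusted p = 0.00047), and no A library overlapped a B library.

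The other spindle genes had smaller differences in WT. TPX2, the activator of Aurora A on spindles, was 83.2 and 84.0 FPKM in WT A and 94.9 and 95.9 in WT B, a difference of -0.19 (adjusted p = 0.000895), with -0.16 in SE (adjusted p = 0.00324). The kinesin KIF11, which pushes spindle poles apart, differed by -0.25 in WT and -0.20 in SE, and KIF2C, which shortens microtubules, by -0.16 and -0.17, all of which passed. HMMR, a hyaluronan receptor that also binds spindle poles, had 48.2 and 46.9 FPKM in WT A, 47.2 and 48.9 in WT B, 40.9 and 43.7 in SE A, and 46.4 and 45.5 in SE B. Its WT letters overlapped (-0.01, adjusted p = 0.789), and it was lower in SE A (-0.12, adjusted p = 0.0428). KIF4A, a chromosome-bound kinesin, passed in neither construct (-0.07 in WT, adjusted p = 0.133; 0.03 in SE, adjusted p = 0.574) and was the steadiest of the 46 on the unnormalized table. KIF20B, a plus-end motor, was at 26.3 and 25.9 FPKM in WT A, 27.1 and 29.8 in WT B, 23.6 and 24.8 in SE A, and 27.3 and 26.9 in SE B, with -0.12 in WT (adjusted p = 0.0528) and -0.16 in SE (adjusted p = 0.0208).

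At the midzone and in cytokinesis, 5 of 6 were lower in WT A and ECT2 was higher. The shares over all genes tested were 22.4% lower and 23.4% higher. KIF23, the motor of centralspindlin, stood at 38.9 and 38.7 FPKM in WT A and 49.5 and 48.0 in WT B, a difference of -0.33 (SE 0.03, adjusted p = 7.84e-05). In SE it was at 43.9 and 45.4 in A and 47.8 and 49.3 in B, and A was lower there too, at -0.12 (adjusted p = 0.0145). ANLN, the contractile ring scaffold anillin, had 23.5 and 23.6 FPKM in WT A, 28.6 and 29.7 in WT B, 24.7 and 25.2 in SE A, and 27.8 and 27.4 in SE B. The A libraries were below the B libraries in both constructs, with -0.30 in WT (adjusted p = 0.000224) and -0.14 in SE (adjusted p = 0.0114). KIF20A, a midzone kinesin, was close in both constructs: -0.25 in WT (30.1 and 30.4 against 36.5 and 35.2 FPKM, adjusted p = 0.000545) and -0.21 in SE (30.6 and 31.1 against 35.4 and 35.9, adjusted p = 0.00185).

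PRC1, which bundles midzone microtubules, was at 45.3 and 46.8 FPKM in WT A, 54.96 and 52.8 in WT B, 59.7 and 58.4 in SE A, and 59.2 and 59.8 in SE B. All SE libraries were above all WT libraries, and the letters differed in WT (-0.23, adjusted p = 0.00116) and not past the threshold in SE (-0.01, adjusted p = 0.833). KIF14, a kinesin that binds PRC1, was likewise higher in all SE than in all WT libraries, with 19.9 and 19.9 FPKM in WT A, 22.1 and 24.0 in WT B, 24.6 and 26.3 in SE A, and 24.5 and 24.4 in SE B. Its WT difference was -0.21 (adjusted p = 0.00429). ECT2, the exchange factor that activates RhoA for furrowing, was at 36.0 and 35.1 FPKM in WT A and at 31.6 and 33.7 in WT B, the single rise among the 46 (0.12, SE 0.04, adjusted p = 0.0426). It kept that direction on the normalized table (0.35, adjusted p = 0.00716). In SE it was at 30.9 and 32.1 in A and 34.6 and 33.1 in B, and the difference of -0.11 did not pass (adjusted p = 0.079).

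Among the chromosome structure genes, 4 of 5 were lower in WT A, against 22.4% of all genes tested. TOP2A, the topoisomerase that untangles sister DNA, had 153 and 154 FPKM in WT A, 196 and 205 in WT B, 184 and 194 in SE A, and 208 and 208 in SE B. The WT difference was -0.38 (SE 0.03, adjusted p = 5.79e-05), or a ratio of 0.767, and the SE difference -0.14 (adjusted p = 0.0129), with no overlap in either. MKI67, the Ki-67 proliferation antigen that coats mitotic chromosomes, was at 78.4 and 82.1 FPKM in WT A, 97.1 and 102 in WT B, 91.9 and 95.9 in SE A, and 95.5 and 93.5 in SE B. It was lower in WT A (-0.31, adjusted p = 0.00014), and its SE letters overlapped (-0.01, adjusted p = 0.845).

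The condensin genes gave another order. SMC4, an ATPase shared by both condensins, was at 105 and 103 FPKM in WT A, 113 and 116 in WT B, 96.5 and 99.3 in SE A, and 113 and 109 in SE B, with -0.14 in WT (adjusted p = 0.0123) and -0.18 in SE (adjusted p = 0.00383). NCAPG, a condensin I subunit, was at 47.7 and 47.6 FPKM in WT A, 49.98 and 50.8 in WT B, 42.1 and 42.9 in SE A, and 51.2 and 51.3 in SE B. Its low libraries were the SE A pair: -0.27 in SE (SE 0.03, adjusted p = 0.000362) against -0.08 in WT, which did not pass (adjusted p = 0.0533). NCAPD2, also of condensin I, differed by -0.12 in WT (adjusted p = 0.0139) and -0.09 in SE (adjusted p = 0.0635).

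The test of the difference between the letter effects (WT A minus B, less SE A minus B) passed for 23 of 46, against 44.5% of all genes tested, 25.9% higher and 18.6% lower. The effect was more negative in WT for 17 members, led by AURKB (-0.46, SE 0.05, adjusted p = 0.000157), CDC25B (-0.43, SE 0.06, adjusted p = 0.000601) and NUSAP1 (-0.34, SE 0.05, adjusted p = 0.000881), and with NUF2 (-0.32), MKI67 (-0.30) and CCNB2 (-0.27) next. It was more negative in SE for the other 6: BUB1 (0.24), PLK1 (0.23), ECT2 (0.23), NCAPG (0.19), AURKA (0.14) and CCNA2 (0.12). In 5 of these 6, all but ECT2, both SE A libraries were below the other 6 libraries on the unnormalized table. How many of all genes tested had that order was not counted. On the normalized scale the signs changed: 30 members were higher and 0 lower, with 77% of all genes tested past the threshold, 75.4% higher and 1.59% lower, and medians of 0.43 for the members and 0.49 for all genes, and AURKB, CDC25B and NUSAP1 were not past it at 0.02, 0.05 and 0.14. CDK1 (-0.03, 95% interval -0.14 to 0.08), CCNB1 (0.04, -0.06 to 0.13) and DLGAP5 (-0.05, -0.16 to 0.06) were among the 23 for which no difference between constructs was found on the unnormalized table.

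The design also sets DOX against vehicle within each construct. No mitotic gene passed that test in either one. In WT, limma called 0 of 46, and 0% of all genes tested; 13 genes of all and 0 members had an unadjusted p under 0.05. The 46 differences ran from -0.06 for UBE2C to 0.07 for MKI67, with a median of 0.01, and 28 were above 0 and 18 below. MKI67 rested at 78.4 in WT A and 97.1 FPKM in WT B with vehicle, and at 82.1 and 102 with DOX (0.07, SE 0.13, adjusted p = 1). KIF20B (26.3 and 27.1 with vehicle, 25.9 and 29.8 with DOX) differed by 0.06 and BIRC5 (68.5 and 72.8, then 67.4 and 70.4) by -0.04, and in all 3 the vehicle and DOX values overlapped. The 95% intervals had a median half-width of 0.26, and the highest upper bound over the 46 was 1.37-fold. This fit leaves the differences between letters in its spread; with the letter as a replicate block 0 of 46 passed, the median half-width was 0.08 and the highest bound 1.16-fold. With the normalized values 0 of 46 and 0% of all genes passed, and the WT median was -0.02 against -0.03 over all genes, so its sign differs between the tables.

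In SE, limma likewise called 0 of 46 and 0% of all genes, with 12 genes of all and 0 members at an unadjusted p under 0.05. Differences ran from -0.03 for CDC25C to 0.08 for GTSE1, with a median of 0.02 and 37 of 46 above 0. GTSE1 went from 38.6 in A and 40.5 in B with vehicle to 41.0 and 42.4 FPKM with DOX (0.08, SE 0.11, adjusted p = 1), BIRC5 from 72.2 and 72.5 to 74.8 and 74.4 (0.04), and NCAPD2 from 83.0 and 89.8 to 87.3 and 90.8 (0.04). In these 3 genes the DOX value was above the vehicle value under each letter. The differences were smaller than their standard errors in this fit, which leaves the differences between letters in its spread. With the letter as a replicate block 0 of 46 passed in SE, and the median half-width was 0.08. In that limma fit 1 member, GTSE1, had an unadjusted p under 0.05 (0.0369). The SE median was -0.22 with the normalized values, close to the -0.24 of all genes tested, and 0 members passed, with 0.00906% of all genes, so the sign of the median differs between the tables. The test of whether the DOX effect differed between constructs called 0 of 46 and 0% of all genes, with 9 genes of all and 0 members at an unadjusted p under 0.05. Those differences ran from -0.12 for UBE2C to 0.10 for CDC25C. Smallest in p were BIRC5 (-0.08, 95% interval -0.30 to 0.14), CCNF (-0.07, -0.37 to 0.23) and GTSE1 (-0.08, -0.45 to 0.28). The median of these differences was -0.01, and it was 0.21 with the normalized values, as over all genes, where 0 of 46 and 0.00906% of all genes passed.

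**Figure D4:**
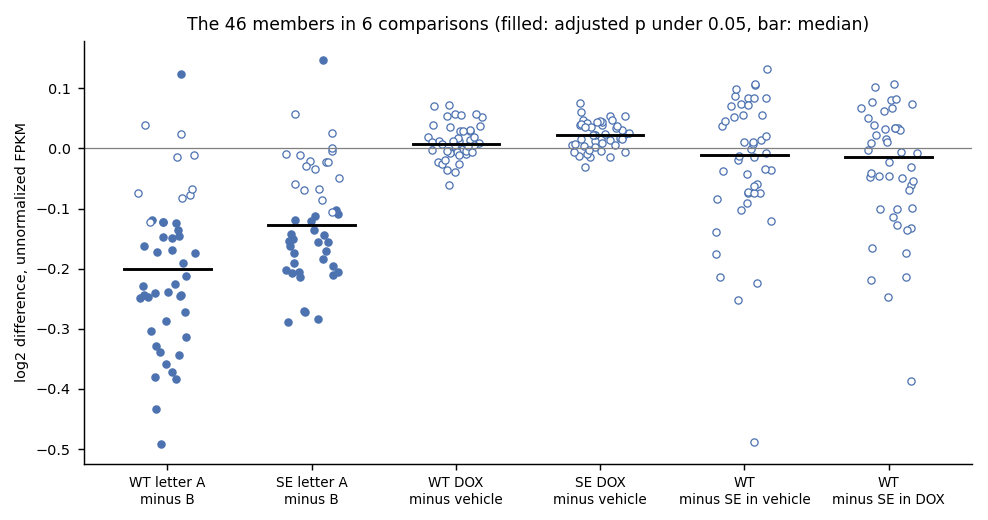
Log2 difference on the unnormalized table (vertical axis) of each of the 46 genes in 6 comparisons; filled points passed an adjusted p under 0.05 and black bars are medians, at -0.20, -0.13, 0.01, 0.02, -0.01 and -0.015 from left to right. Filled points occur only in the 2 letter comparisons, and the isolated low point in the WT minus SE comparisons is CDC25C.

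Set against each other, the WT and SE lines had similar levels of these genes on the unnormalized table. With vehicle 0 of 46 passed, against 0.0906% of all genes tested, 2 members had an unadjusted p under 0.05, and the median WT minus SE was -0.01. With DOX 0 of 46 passed, against 0.0725% of all genes, and again 2 members had an unadjusted p under 0.05. CDC25C was the farthest below 0 under both treatments, at -0.49 with vehicle (SE 0.15, adjusted p = 0.589) and -0.39 with DOX (SE 0.15, adjusted p = 0.702). PRC1 was at -0.25 under both (SE 0.10, adjusted p = 0.654 and 0.702) and KIF14 at -0.22 and -0.21 (SE 0.10, adjusted p = 0.654 and 0.715). For these 3, every WT library was below every SE library of the values given above. On the normalized table the WT and SE values overlapped in each of them. How many of all genes tested were so separated was not counted. With the normalized values the medians were 0.29 with vehicle and 0.50 with DOX, near the 0.32 and 0.53 of all genes tested. There 0 members passed with vehicle, where 0.561% of all genes did, and 1, KIF20B, was higher in WT with DOX (0.62, SE 0.23, adjusted p = 0.0493), where 29.9% of all genes passed, 29.7% higher.

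The wider cell-cycle program was read from other gene lists, described by counts. Of all genes tested, 22.4% were lower and 23.4% higher in WT A on the unnormalized table, and 25% and 15.3% in SE A. Of 71 other mitotic genes, 57 were lower and 2 higher in WT A, with a median of -0.17, and 46 were lower and 0 higher in SE A, with a median of -0.13. PSRC1, a spindle protein, was at 18.6 and 17.3 FPKM in WT A and at 26.2 and 24.8 in WT B (-0.50, adjusted p = 1.43e-05). HJURP, the CENPA chaperone, differed by -0.38 and PBK, a mitotic kinase, by -0.35. After normalization 4 of the 71 were higher and 1 lower in WT A, with a median of 0.06. Of all genes tested, 41.9% were higher and 2.35% lower there.

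A separate list, also of 46 genes, holds those of G1/S and DNA replication, and it gave other counts in the 2 constructs. In WT 16 were lower and 11 higher in A, with a median of -0.02, and in SE 42 were lower and 0 higher, with a median of -0.18. The 11 higher in WT A are near the 23.4% higher of all genes tested. The difference between the letter effects was higher in WT for 28 and lower for 2, with a median of 0.16, against 25.9% higher and 18.6% lower of all genes tested. CCNE1, the G1/S cyclin E1, was at 9.38 and 8.89 FPKM in WT A, 6.45 and 5.93 in WT B, 5.92 and 5.50 in SE A, and 6.81 and 6.54 in SE B. It was higher in WT A by 0.55 (adjusted p = 6.37e-05) and lower in SE A, at -0.22 (adjusted p = 0.00826). E2F2, a transcription factor of S-phase genes, differed by -0.39 in WT, and GMNN, the licensing inhibitor geminin, by -0.26. In WT, then, the median of the mitotic genes was below that of all genes while the G1/S median was near it, and in SE both medians were below. After normalization 14 of the G1/S genes were higher and 0 lower in WT A. Of all genes tested, 41.9% were higher and 2.35% lower, so the share of G1/S genes called higher was below that of all genes.

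Of 13 subunits of the MuvB, DREAM and NF-Y complexes that read the promoter strings above, 7 were lower and 2 higher in WT A, and 3 were lower and 0 higher in SE A. The 3 lower in SE A are near the 25% lower of all genes tested. MYBL2, the B-Myb factor that turns MuvB into an activator, was at 160.3 and 163 FPKM in WT A, 211 and 214 in WT B, 208 and 206 in SE A, and 201 and 197 in SE B. It was lower in WT A (-0.40, adjusted p = 2.35e-05) and did not pass in SE (0.06, adjusted p = 0.146). RBL1, the pocket protein p107, differed by -0.48 in WT and LIN54, the MuvB subunit that binds DNA, by -0.26. Of the 14 core subunits of the anaphase-promoting complex, 3 were lower and 4 higher in WT A, shares near the 22.4% lower and 23.4% higher of all genes tested, with a median of 0.06; CDC23 was higher by 0.26, and ANAPC2 and ANAPC5 lower, at -0.15 and -0.13. The WT medians of these lists were 0.12 and 0.28 with the normalized values.

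Cell-cycle inhibitors, 9 of 14 tested, gave unlike counts in the constructs on the unnormalized table: 6 lower and 2 higher in WT A, 0 lower and 7 higher in SE A. Of all genes tested, 22.4% were lower and 23.4% higher in WT A, and 25% and 15.3% in SE A. CDKN2D, the CDK4 and CDK6 inhibitor p19, was at 10.8 and 10.7 FPKM in WT A, 15.1 and 15.2 in WT B, 18.3 and 16.3 in SE A, and 12.9 and 11.6 in SE B, so the letters were apart in each construct and in opposite order. The differences were -0.49 in WT and 0.49 in SE (adjusted p = 3.17e-05 and 8.14e-05), and on the normalized table they were -0.27 and 0.23. BTG1, an antiproliferative gene, was higher in A in both (0.40 and 0.27), and CCNG2, an atypical cyclin linked to arrest, was lower in WT A (-0.47) and higher in SE A (0.20). On the normalized table the list had 2 lower and 3 higher in WT A, and 1 lower and 2 higher in SE A. Of all genes tested, 2.35% were lower and 41.9% higher in WT A there, and 59% were lower in SE A.

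**Figure D5:**
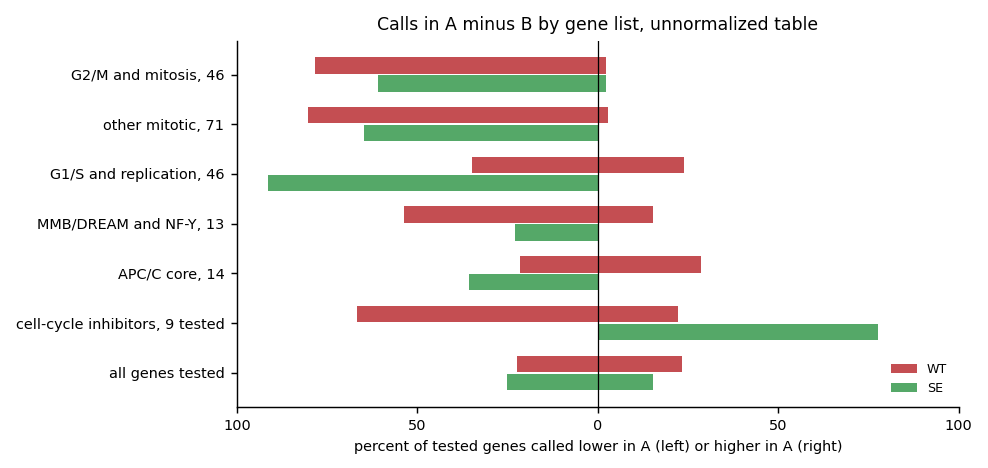
Percent of the tested genes of each list called lower (bars to the left of 0) or higher (bars to the right) in A than in B, in WT (red) and SE (green), on the unnormalized table; the number of genes tested stands beside each list. The mitotic lists lie almost wholly to the left in both constructs, and the G1/S list does so in SE. The cell-cycle inhibitors point mostly left in WT and only right in SE.

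The identity of the cells was read from marker lists. All 15 B-lineage markers were past the minimum, with library sums between 2752 and 3267 FPKM, while T-cell markers were 0 of 8 (highest CD4 at 0.394 FPKM), with CD3G, CD2 and TRAT1 at 0 throughout. Adherent-cell markers were 1 of 8, TAGLN, with sums between 2.78 and 5.74 FPKM. TAGLN moved with the SE letters, at 5.44 and 5.42 FPKM in SE A and 3.29 and 2.92 in SE B (0.79, adjusted p = 0.000222), and in WT its difference of 0.01 did not pass (adjusted p = 0.94). Myeloid markers were 2 of 8, LYZ and CD33, with ELANE and FCN1 at 0. The sum of the myeloid list moved with the WT letters, at 5.58 and 5.30 FPKM in WT A and 2.60 and 2.51 in WT B. LYZ was at 4.62 and 3.96 FPKM in WT A and 1.56 and 1.68 in WT B (1.35, adjusted p = 3.64e-05 in limma). CD33 overlapped between the WT letters and did not pass (adjusted p = 0.223). LYZ was also higher in SE A (0.34, adjusted p = 0.0335). B-lineage genes moved too: DNTT, the terminal transferase of V(D)J joining, was at 129.8 and 129.8 FPKM in WT A and 239 and 231 in WT B (-0.85, adjusted p = 7.12e-07), RAG1, the recombinase, was lower, at -0.56, and BLNK, a B-cell adaptor, was higher by 0.55. The part of such differences between the letters in the mitotic counts was not tested.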

How the data were processed

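RNA was sequenced in 8 NALM6 libraries, made with a kit that selects poly(A) RNA, per the labels' protocols. The authors deposited FPKM in 2 tables of 23713 rows, 92 of them spike-ins; HISAT, Cufflinks 2.0.0 and hg19 are named in the submitters' processing notes, and how the second table was normalized and which annotation was used is not stated there. The members and gene lists were chosen with earlier results of these data known. Values were analysed as log2(unnormalized FPKM + 0.1), a scale that understates changes of low genes, for rows with a mean of at least 1, without spike-ins and 298 rows with small-RNA names. limma 3.58.1 (R 4.3.3, empirical Bayes with trend) used letter within construct plus a DOX effect per construct (2 residual degrees of freedom) for A against B, and 4 group means (4 residual degrees of freedom) otherwise; p-values were adjusted by Benjamini-Hochberg over 11042 genes with a threshold of 0.05. Tests measure the spread between these libraries. Genes named with values were, in each role, the 3 of smallest p and the 1 of largest p in WT A minus B and the most abundant; in other comparisons and lists, the 3 of smallest p; and the 10 of smallest p among those called. The remaining members were named after their values were seen, so that each is described. The letter fit was tested on simulated data of 11042 genes, with 33 or 34 genes changed per size. It recovered 97.1% of falls and 90.9% of rises of 0.5, 50% and 60.6% of those of 0.2, and 15.2% and 3.03% of those of 0.1, in log2. In the real data 45.9% of genes passed in WT A minus B, so recovery there may differ. The fit for DOX in WT recovered 60.6% of simulated falls and 48.5% of rises of 0.5. Alternatives were the normalized table, equal medians, other pseudocounts, minimums and designs, a replicate block and leaving out libraries. The files hold no counts, so counting intervals could not be given. Read division among overlapping or antisense genes could change single values, since no source used here says whether the counting used strand. The result of 1 further marker list is not reported here.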

Additional observations from a re-analysis of the deposited data

Results flagged for a closer look

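For 23 of the 46 genes the A minus B difference itself differed between WT and SE by limma's test of the difference, at an adjusted p under 0.05 on the unnormalized table, where 44.5% of all genes tested did so. In log2 units, WT less SE, it was -0.46 for AURKB, -0.43 for CDC25B, -0.34 for NUSAP1, -0.32 for NUF2, -0.30 for MKI67, -0.27 for CCNB2, CKAP2 and KIF14, -0.25 for TOP2A, -0.22 for FOXM1, and -0.21 for BUB1B, KIF23, PRC1 and UBE2C. It was -0.18 for GTSE1 and TTK and -0.16 for ANLN. Above 0 were BUB1 at 0.24, PLK1 and ECT2 at 0.23, NCAPG at 0.19, AURKA at 0.14 and CCNA2 at 0.12. The 23 of 46 are a share close to the 44.5% of all genes tested, counted in either direction. With the normalized values 46 of 46 differences were above 0, so those below 0 hold for the unnormalized table only. The letters of the 2 constructs are not tied to each other in the labels, and with 1 vehicle and 1 DOX library per letter, cultures and libraries cannot be told apart.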

How the results depend on the processing

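The scale mattered most. With the normalized values 1 member passed in WT A minus B in place of 37, with a median of 0.0275. The sign turned for 23 of 46, among them CCNF (0.11), CDK1 (0.0029), CDC20 (0.0869), PTTG1 (0.22), CENPA and CENPF (0.0558 each), NDC80 (0.15), BIRC5 (0.16), HMMR (0.21), PRC1 (0.0043), SMC4 (0.095) and NCAPG (0.15). When that table was set to equal medians, an alternative added after seeing the data, the median was -0.19 and PTTG1 was at 0.0032. In SE the normalized median was -0.38, and 4 members turned sign. That of the difference between letter effects was 0.43, and 31 turned, among them AURKB (0.0223), CDC25B (0.0502) and NUSAP1 (0.14). For DOX in SE it was -0.22 and 37 turned, among them GTSE1 (-0.17), BIRC5 (-0.20) and NCAPD2 (-0.20). For DOX in WT 17 turned, and for the difference in DOX effect 25, among them BIRC5 (0.13), CCNF (0.14) and GTSE1 (0.13). For WT minus SE the normalized medians were 0.29 with vehicle and 0.50 with DOX, where 1 member passed; 24 and 26 turned, among which PRC1 (0.049 and 0.27) and KIF14 (0.083 and 0.30) did so under both treatments and CDC25C (0.14) with DOX. On the unnormalized table the WT median was -0.20 with equal library medians and -0.19 with a pseudocount of 1 or a minimum of 5. Without a minimum, 17 members passed in SE A minus B and 14 in the difference between letter effects; the cause was not tested.

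Leaving out 1 library at a time gave 29 to 38 members past the threshold in WT A minus B (median -0.22 to -0.19), 16 to 30 in SE (median -0.14 to -0.12) and 19 to 21 in their difference (median -0.0882 to -0.0351). It gave 0 for DOX and for WT minus SE throughout, with medians from -0.09 to 0.11 for DOX in WT, -0.05 to 0.10 in SE, -0.11 to 0.09 for their difference, -0.11 to 0.08 for WT minus SE with vehicle and -0.15 to 0.08 with DOX. Of the members checked singly, those chosen by the rule for each comparison, the ones that changed sign ranged from -0.093 to 0.0725 (PTTG1) and -0.0616 to 0.0324 (HMMR) in WT A minus B; from -0.0876 to 0.23 (MKI67), -0.0784 to 0.0082 (BIRC5) and -0.0426 to 0.16 (KIF20B) for DOX in WT; from -0.0119 to 0.10 (NCAPD2) for DOX in SE; and from -0.21 to 0.0437 (GTSE1) and -0.15 to 0.0106 (CCNF) for the difference in DOX effect. Over all 46, A minus B had opposite signs in the vehicle and DOX pairs for 2 members in WT and 7 in SE.

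A replicate block on the letters left 0 members called for DOX in WT, in SE and for their difference. It narrowed the median half-width in WT from 0.26 to 0.08 and its highest bound to 1.16-fold, and 448, 338 and 397 genes of all had an unadjusted p under 0.05. Among them was 1 member, GTSE1 for DOX in SE (0.08, adjusted p = 1 in limma). Across 11042 genes, A minus B with vehicle and with DOX correlated at r = 0.757 in WT and 0.72 in SE, but the labels do not say that a letter is 1 culture, so the libraries share a letter only. Depth is known only in relative terms, and 2 libraries per group limit every comparison.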
